A study of Homo sapiens with 4 samples.

Results

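The genes described here are the human glycosyltransferase and sulfotransferase families whose symbols begin with the stems for glycan elongation, branching, sialylation, fucosylation and sulfation (B3GNT, B3GAL, B3GAT, B4GAL, ST3GAL, ST6GAL, ST8SIA, MGAT, FUT, GCNT, CHST, CHPF, CHSY, HS2ST, HS3ST, HS6ST, NDST, EXT and EXTL). They were chosen by symbol pattern from the named genes of the array, with earlier results of these data known, and 45 of 14006 named genes matched. Of the 45, 38 were protein-coding and 7 were antisense, divergent or pseudogene transcripts that encode no enzyme. The working name of the group, elongation, sialylation and sulfation enzymes, did not describe what was measured. No protein-coding sialyltransferase, MGAT, B3GNT, GCNT, galactosyltransferase or glucuronyltransferase was among the 38, so these families are not analysed here. FUT2 was the only fucosyltransferase. The others comprised 5 of 5 heparan sulfate polymerase genes of RefSeq, 13 of 15 heparan sulfate sulfotransferase genes, 4 of 4 chondroitin polymerase genes and 15 of 15 CHST sulfotransferase genes. The results below therefore concern glycosaminoglycan synthesis and carbohydrate sulfation, and 29 of the 38 enzymes build or sulfate heparan, chondroitin or dermatan sulfate.

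The arrays measured total RNA of 4 cultures of human prostate cancer cell lines, 1 array each. PC3-L and PC3-H are cells of the PC3 line, which came from a bone metastasis and is androgen-independent. They were separated with the antibody IIH6C4, which binds the laminin-binding glycan of dystroglycan, into cells labelled low (PC3-L) and high (PC3-H) for it. LNCaP-AI and LNCaP carry the label of the LNCaP line, from a lymph node metastasis: LNCaP-AI is given as an androgen-independent derivative obtained in medium with charcoal-stripped serum and as low for the glycan, and LNCaP as androgen-dependent and high. PC3-L and LNCaP-AI are labelled highly motile and invasive, and PC3-H and LNCaP weakly so. All were grown in RPMI1640 with serum, and each name stands for 1 culture. A free-text description exchanges high and low for the PC3 pair; titles and source names were followed.

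Heparan sulfate and chondroitin sulfate are long sugar chains attached to proteoglycans such as syndecans and glypicans. Polymerases in the Golgi lengthen the chains from alternating sugars, and sulfotransferases then place sulfate at defined positions, taking it from the donor PAPS. The pattern of sulfate governs which growth factors, chemokines and matrix proteins a chain binds, and heparan sulfate on tumour cells binds laminins and fibroblast growth factors. In bulk RNA, fewer cells that carry a transcript and less of it per cell cannot be told apart.

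The line markers bear on every comparison with the array labelled LNCaP-AI. Of 8 PC3 markers 8 were 2-fold or more higher on it than on LNCaP, and of 4 measured LNCaP markers 4 were lower. Among all 11136 genes that passed the intensity filter given below, 5.45% were higher and 5.13% lower. The markers were chosen with earlier results of these data known, so these counts are no independent check of the label. The summed intensity of the LNCaP markers was 187 on PC3-L, 435 on PC3-H, 212 on the array labelled LNCaP-AI and 3613 on LNCaP. That of the PC3 markers was 5412, 2247, 4566 and 308 on the same arrays. The defining LNCaP gene KLK3 was at 61.2 on the array labelled LNCaP-AI and at 1781 on LNCaP. Against PC3-L, 1 of the 8 PC3 markers was past 2-fold: CXCL8, at 46.9 on the array labelled LNCaP-AI and 497 on PC3-L, 10.4-fold lower. Its markers are thus nearer to those of PC3-L than to those of its labelled line, except CXCL8, which at 46.9 was nearer to the 22.3 on LNCaP, and a difference between it and LNCaP cannot be told apart from a difference between a PC3-like and an LNCaP culture. Markers of other cell types were few and mostly dim: the summed intensity was 67.3 to 76.1 for 2 of 5 fibroblast genes and 137 to 170 for 3 of 5 endothelial genes. It was 125 to 269 for 3 of 5 perineurial or Schwann genes, with ERBB3 at 188 of the 269 on LNCaP. For 3 of 5 leukocyte genes the sum was 203 to 734, most of it from CD68, a lysosomal gene that tumour cells also express. The part of these markers in the results was not tested.

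The deposited values are linear intensities, with array medians between 39.8 and 41.2 over all probes and a lowest value of 17.6. Of the 45 genes 16 lay under the median of the array on all 4 arrays, 10 of them protein-coding, so their differences say little. A gene was kept for a pair of arrays where the brighter of its values was at or above the 40th percentile of that array, 33.6 to 34.8. In all, 27 of the 38 enzymes did so in all 4 comparisons, and CHST4, CHST9, EXTL1, HS3ST5, HS6ST2, HS6ST3 and NDST3 in none. Folds are on the scale of intensity plus 1, with no background subtracted here, and may understate the difference of dim genes. With 1 array per group no difference between 2 arrays has a replicate check, and no p-value is given for a pair.

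**Figure D1:**
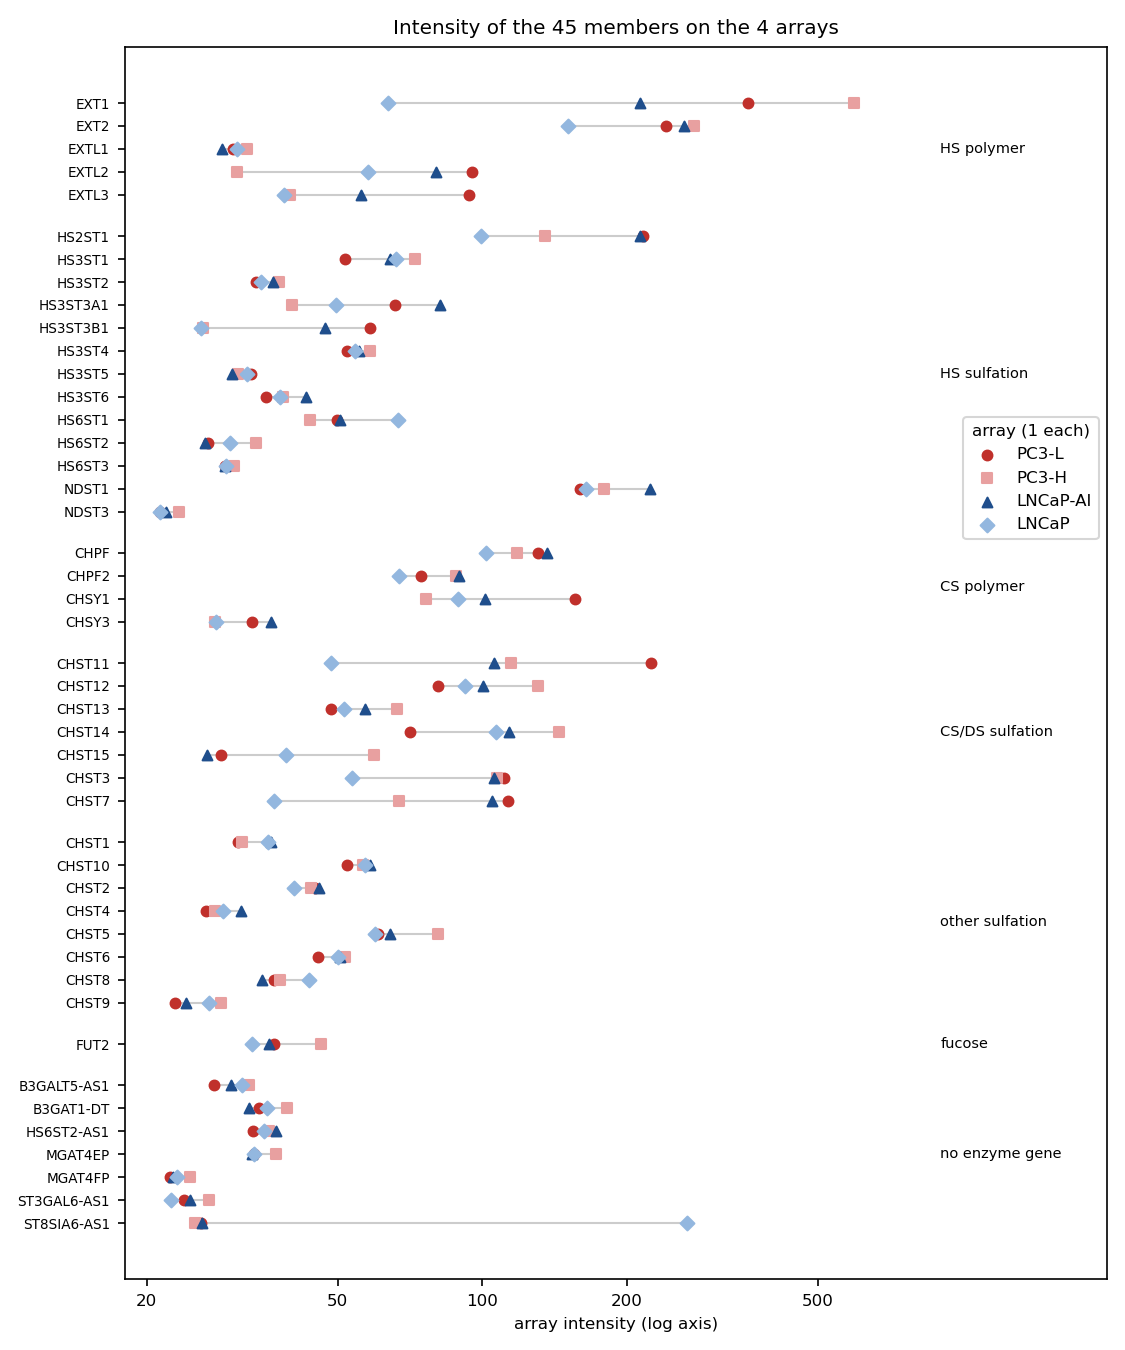
Intensity (log axis) of each of the 45 genes on the PC3-L, PC3-H, LNCaP-AI and LNCaP arrays, 1 point per array, grouped by role, with HS for heparan sulfate, CS for chondroitin sulfate and DS for dermatan sulfate; grey lines join the lowest and highest value. EXT1 spans 63.6 (LNCaP) to 595 (PC3-H), ST8SIA6-AS1 stands out on LNCaP alone, and the 8 genes of the group other sulfation differ little.

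Among the heparan sulfate polymerases, EXT1 had the widest range over the 4 arrays, 9.22-fold, while EXT2 and EXTL1 were within 2-fold. EXT1, which forms with EXT2 the enzyme complex that lengthens the heparan chain, was at 357 on PC3-L and 595 on PC3-H, and at 213 on the array labelled LNCaP-AI and 63.6 on LNCaP. LNCaP was thus low and PC3-H high, and the array labelled LNCaP-AI was 3.31-fold above LNCaP; between PC3-L and PC3-H the log2 difference was -0.73, within 2-fold. EXT2 was at 241 on PC3-L and 276 on PC3-H, and at 263 on the array labelled LNCaP-AI and 151 on LNCaP. It was lowest on LNCaP like EXT1, but within 2-fold in each of the 4 comparisons.

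The EXT-like genes had another pattern. EXTL3, which begins the heparan chain on the linker sugar, was at 94.0 on PC3-L and 39.7 on PC3-H, and at 55.8 on the array labelled LNCaP-AI and 38.7 on LNCaP. PC3-L was high and PC3-H was level with LNCaP, with PC3-L 2.33-fold above PC3-H. EXTL2, which can add an N-acetylglucosamine that stops a chain at its linker, was at 95.2 on PC3-L and 30.9 on PC3-H, and at 80.2 on the array labelled LNCaP-AI and 57.7 on LNCaP. Here PC3-H was the low array, under its filter level of 34.8, so the 3.02-fold difference of PC3-L from PC3-H may be understated. EXTL1 stayed between 28.7 and 32.4 on the 4 arrays and did not pass the filter.

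Among the 13 heparan sulfate sulfotransferases, HS2ST1, HS3ST3A1 and HS3ST3B1 were higher on the array labelled low for the glycan in both pairs, by 0.67 or more on the log2 scale. HS2ST1, which sulfates the uronic acid of the chain, was at 217 on PC3-L and 135 on PC3-H, and at 213 on the array labelled LNCaP-AI and 99.5 on LNCaP. The arrays labelled low were nearly equal and stood above the others, by 1.59-fold between the PC3 arrays and 2.13-fold in the LNCaP pair. HS3ST3B1, which adds the rare late sulfate of the glucosamine ring, was at 58.3 on PC3-L and 26.2 on PC3-H, and at 47.1 on the array labelled LNCaP-AI and 26.0 on LNCaP. PC3-H and LNCaP lay near the bottom of the scale. The 2.18-fold difference of PC3-L from PC3-H may thus be understated, as may the log2 difference of 0.84 in the LNCaP pair. The PC3 difference of HS3ST3B1 came within 2-fold under 2 alternatives. HS3ST3A1, its close paralogue with the same activity, was at 65.7 on PC3-L and 40.3 on PC3-H, and at 81.7 on the array labelled LNCaP-AI and 49.5 on LNCaP. Again the arrays labelled low were the higher ones, with log2 differences of 0.69 and 0.71. The paralogues are near-identical in their catalytic part, and whether the probes separate them was not tested.

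The rest of that family differed less. NDST1, which removes acetyl groups and puts sulfate in their place as the entry step of heparan sulfation, was at 160 on PC3-L and 179 on PC3-H, and at 223 on the array labelled LNCaP-AI and 164 on LNCaP; only the array labelled LNCaP-AI stood somewhat apart. HS6ST1, a 6-O-sulfotransferase, was the 1 enzyme of the family that was highest on LNCaP, at 66.9, with 49.9 on PC3-L, 43.8 on PC3-H and 50.6 on the array labelled LNCaP-AI. HS3ST1, whose product is the antithrombin-binding sulfate, was at 51.7 on PC3-L and 72.4 on PC3-H, and at 64.1 on the array labelled LNCaP-AI and 66.0 on LNCaP. HS3ST2, HS3ST4 and HS3ST6 were within 2-fold throughout, while HS3ST5, HS6ST2, HS6ST3 and NDST3 were dim and passed the filter in no comparison. With NDST1, HS6ST1, HS3ST1 and HS3ST3A1 these are 11 sulfotransferases. Without the filter, their log2 differences were from -0.48 to 0.69 between the PC3 arrays and from -0.40 to 0.71 in the LNCaP pair.

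Of the 4 chondroitin polymerase genes, CHSY1 was past 2-fold in 1 comparison. This synthase, which lengthens the chondroitin chain, was at 156 on PC3-L and 76.4 on PC3-H, and at 101 on the array labelled LNCaP-AI and 89.0 on LNCaP. PC3-L stood alone above the other 3 arrays, 2.03-fold above PC3-H, which is just past the threshold. CHPF, its partner in polymerisation, was at 131 on PC3-L and 118 on PC3-H, and at 136 on the array labelled LNCaP-AI and 102 on LNCaP. CHPF2 and CHSY3 were also within 2-fold, and CHPF, CHPF2 and CHSY3 had log2 differences between 0.36 and 0.42 in the LNCaP pair. CHSY3 did not pass the filter between the PC3 arrays or between LNCaP and PC3-H.

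The chondroitin and dermatan sulfotransferases included enzymes that were higher and enzymes that were lower on PC3-L. CHST11, which places the 4-O-sulfate of chondroitin, was at 225 on PC3-L and 115 on PC3-H, and at 106 on the array labelled LNCaP-AI and 48.4 on LNCaP. PC3-L was highest and LNCaP lowest, and the array labelled LNCaP-AI was level with PC3-H. Its fold was 1.95 between the PC3 arrays and 2.16 in the LNCaP pair, and it was the only member past 2-fold between the array labelled LNCaP-AI and PC3-L, 2.12-fold lower on the array labelled LNCaP-AI. CHST7, a 6-O-sulfotransferase, was at 113 on PC3-L and 66.9 on PC3-H, and at 105 on the array labelled LNCaP-AI and 36.9 on LNCaP. The arrays labelled low were the 2 high ones, with 1.68-fold between the PC3 arrays and 2.80-fold in the LNCaP pair. CHST3, the other chondroitin 6-O-sulfotransferase, was at 111 on PC3-L and 107 on PC3-H, and at 106 on the array labelled LNCaP-AI and 53.6 on LNCaP. It was level on 3 arrays and low on LNCaP alone, with a log2 difference of 0.97 in the LNCaP pair, just within 2-fold.

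CHST14 and CHST15 went the other way in the PC3 pair. CHST14, the dermatan 4-O-sulfotransferase, was at 70.8 on PC3-L and 145 on PC3-H, and at 114 on the array labelled LNCaP-AI and 107 on LNCaP. PC3-L was the low array, 2.03-fold below PC3-H, while the LNCaP pair was level. CHST15, which adds a further sulfate to chondroitin that is already 4-O-sulfated, was at 28.6 on PC3-L and 59.5 on PC3-H, and at 26.7 on the array labelled LNCaP-AI and 39.0 on LNCaP. The arrays labelled low lay near the bottom of the scale, with PC3-L 2.05-fold below PC3-H and a log2 difference of -0.53 in the LNCaP pair. CHST12 and CHST13, further chondroitin 4-O-sulfotransferases, had log2 differences of -0.68 and -0.45 between the PC3 arrays and of 0.12 and 0.14 in the LNCaP pair. All 7 enzymes of this family were lower on LNCaP than on PC3-H, at a median log2 difference of -0.60, against a median of -0.01 over all genes; of the 7, only CHST11 was past 2-fold, 2.35-fold lower.

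The sulfotransferases of other glycans differed little. CHST5, which sulfates N-acetylglucosamine in intestinal mucins, was at 60.7 on PC3-L and 80.9 on PC3-H, and at 64.1 on the array labelled LNCaP-AI and 59.7 on LNCaP. CHST10, which sulfates the HNK-1 epitope and can act on the O-mannosyl glycans of dystroglycan, was at 52.4 on PC3-L and 56.3 on PC3-H, and at 58.4 on the array labelled LNCaP-AI and 57.0 on LNCaP. The 4 values thus lay within a narrow range across high and low labels for the laminin-binding glycan. CHST1, CHST2, CHST4, CHST6, CHST8 and CHST9, which act on keratan sulfate, selectin ligands or hormone glycans, were within 2-fold as well. Of these, CHST4 and CHST9 passed the filter in no comparison, and CHST1 did not pass it between the PC3 arrays. Without the filter, the 8 genes had log2 differences from -0.41 to 0.03 between the PC3 arrays and from -0.31 to 0.17 in the LNCaP pair. CHST6 had 2 probes, with log2 differences of -0.19 and -0.18 in the PC3 pair. FUT2, the fucosyltransferase of secretor status, was at 36.8 on PC3-L and 46.2 on PC3-H, and at 35.9 on the array labelled LNCaP-AI and 33.1 on LNCaP, and was within 2-fold in all 4 comparisons.

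Of the 7 transcripts that encode no enzyme, ST8SIA6-AS1 had the largest difference of all 45 genes. This antisense transcript of a sialyltransferase gene was at 26.0 on PC3-L and 25.2 on PC3-H, and at 26.1 on the array labelled LNCaP-AI and 267 on LNCaP. LNCaP alone was high, and the other 3 arrays lay near the bottom of the scale: the array labelled LNCaP-AI was 9.89-fold below LNCaP, and LNCaP was 10.2-fold above PC3-H. Its neighbour on the chromosome is ST8SIA6, which is not analysed here, and whether the labelled target keeps the strands apart was not tested. B3GALT5-AS1, B3GAT1-DT, HS6ST2-AS1, MGAT4EP, MGAT4FP and ST3GAL6-AS1 lay between 22.4 and 39.3 on all 4 arrays.

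Upstream sequence is shown for 6 enzymes: HS3ST3A1, HS3ST3B1, CHST11, CHST7, HS2ST1 and EXTL2. All but EXTL2 were higher on the arrays labelled low in both pairs by 0.67 or more on the log2 scale. EXTL2 was higher in both too, by 0.47 in the LNCaP pair, and past 2-fold between the PC3 arrays under all alternatives. Further enzymes, EXTL3 among them, were higher in both pairs and are not shown. Each sequence is the 250 bases before the gene start in RefSeq (GRCh38.p14), 5′ to 3′ on the strand of the gene. They lie at chr17:13601930-13602179 (minus strand), chr17:14300831-14301080 (plus), chr12:104456698-104456947 (plus), chrX:46573515-46573764 (plus), chr1:86914385-86914634 (plus) and chr1:100894843-100895092 (minus), in the order of the lines. Capitals mark matches on either strand to the GC box (GGGCGG) or the CCAAT box (CCAAT), and adjoining or overlapping matches run together.
HS3ST3A1: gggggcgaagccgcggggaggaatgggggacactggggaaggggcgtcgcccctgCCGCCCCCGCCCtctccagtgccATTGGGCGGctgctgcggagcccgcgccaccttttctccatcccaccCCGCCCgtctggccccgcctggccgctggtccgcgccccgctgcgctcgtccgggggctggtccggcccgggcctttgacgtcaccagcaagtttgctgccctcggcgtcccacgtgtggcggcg
HS3ST3B1: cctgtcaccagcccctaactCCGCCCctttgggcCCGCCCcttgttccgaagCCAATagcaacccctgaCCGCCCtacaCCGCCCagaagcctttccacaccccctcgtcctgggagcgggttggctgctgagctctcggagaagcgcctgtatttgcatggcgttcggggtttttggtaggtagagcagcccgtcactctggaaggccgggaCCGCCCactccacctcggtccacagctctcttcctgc
CHST11: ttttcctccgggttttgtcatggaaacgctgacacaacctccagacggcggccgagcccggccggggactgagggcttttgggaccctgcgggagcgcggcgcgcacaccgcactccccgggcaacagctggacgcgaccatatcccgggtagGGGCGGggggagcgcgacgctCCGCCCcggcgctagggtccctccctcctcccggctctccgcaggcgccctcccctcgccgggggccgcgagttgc
CHST7: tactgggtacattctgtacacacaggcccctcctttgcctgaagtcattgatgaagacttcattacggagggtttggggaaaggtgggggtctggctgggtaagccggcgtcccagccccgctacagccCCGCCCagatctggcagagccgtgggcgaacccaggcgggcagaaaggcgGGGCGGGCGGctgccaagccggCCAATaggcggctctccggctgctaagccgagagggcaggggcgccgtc
HS2ST1: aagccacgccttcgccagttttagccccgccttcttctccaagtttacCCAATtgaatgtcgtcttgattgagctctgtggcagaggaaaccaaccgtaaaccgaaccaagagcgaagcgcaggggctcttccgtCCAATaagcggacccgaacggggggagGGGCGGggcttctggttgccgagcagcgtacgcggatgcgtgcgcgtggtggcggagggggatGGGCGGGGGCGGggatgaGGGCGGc
EXTL2: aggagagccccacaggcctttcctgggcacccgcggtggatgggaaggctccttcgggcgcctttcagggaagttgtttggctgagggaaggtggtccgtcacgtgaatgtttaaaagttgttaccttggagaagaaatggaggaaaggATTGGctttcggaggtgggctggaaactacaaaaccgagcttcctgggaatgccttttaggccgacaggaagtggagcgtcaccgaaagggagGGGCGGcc
HS3ST3A1 held 4 GC boxes and 1 CCAAT box and HS3ST3B1 held 5 and 1. CHST11 held 2 GC boxes and no CCAAT box, CHST7 held 3 and 1, HS2ST1 held 4 and 2, and EXTL2 held 1 of each. None of the 6 held a TATA box (TATAAA) or an AP-1 motif (TGANTCA). Sequence was matched for 38 of the 45 genes, of which 30 (78.9%) held a GC box, against 42.3% of 27305 promoters of the same length. The 27305 were all genes of the promoter set, not limited by gene type or to genes of the array. A CCAAT box was in 8 (21.1%) against 33.0%, a TATA box in 2 (5.26%) against 11.1%, and an AP-1 motif in 2 (5.26%) against 6.60%. The GC content had a median of 69.8% in the 38 and 58% over all, and the part of base composition in the share with a GC box was not tested. A match describes letters and shows no bound factor, and the arrays measured no binding.

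PC3-L was set against PC3-H to see which of these genes go with little of the laminin-binding glycan inside 1 line. EXTL2, EXTL3, HS3ST3B1 and CHSY1 were past 2-fold higher on PC3-L, and CHST14 and CHST15 lower. These were 4 and 2 of the 32 genes of the group that passed the filter, beside 8.58% higher and 3.75% lower of all 11135 genes that passed it. The median log2 difference was -0.14 over the 32 and -0.02 over all genes. Of the 29 enzymes that passed, 12 were above 0 and 17 below (58.6% below), beside 51.6% below of all 11135 genes. Of the 8 PC3 markers, 4 were also 2-fold or more higher on PC3-L than on PC3-H, with summed intensities of 5412 on PC3-L and 2247 on PC3-H, and their part in these differences was not tested. Several calls were close to the threshold. With median centring 5 members were higher and 0 lower, as CHST11 came past 2-fold (log2 difference 1.01) and CHST14 and CHST15 came within it. With a pseudocount of 8 only EXTL2 and EXTL3 stayed past 2-fold, and with a trend of the differences with gene length and gene density removed, EXTL2, CHST15 and EXT1 (log2 difference -1.30) were past it. That removal also took the share of higher genes among all genes past 2-fold to 50.8%, against 69.6% without it.

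In the LNCaP pair, androgen independence and little glycan come together by label, and each direction rests on an array whose markers oppose its line label. EXT1, CHST7, CHST11 and HS2ST1 were higher by 2-fold or more on the array labelled LNCaP-AI, and ST8SIA6-AS1 lower. These were 4 and 1 of 34 genes that passed the filter, beside 5.45% higher and 5.13% lower of all 11136 genes. Of the 31 enzymes that passed, 27 were above 0 and 4 below, with a median log2 difference of 0.17, while 5632 of all 11136 genes were above 0, with a median of 0.01. The share of the enzymes above 0 was between 76.3% and 90.9% under the alternatives run. Those below 0 were CHST15, CHST8, HS3ST1 and HS6ST1. All 5 calls held under each of the alternatives.

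**Figure D2:**
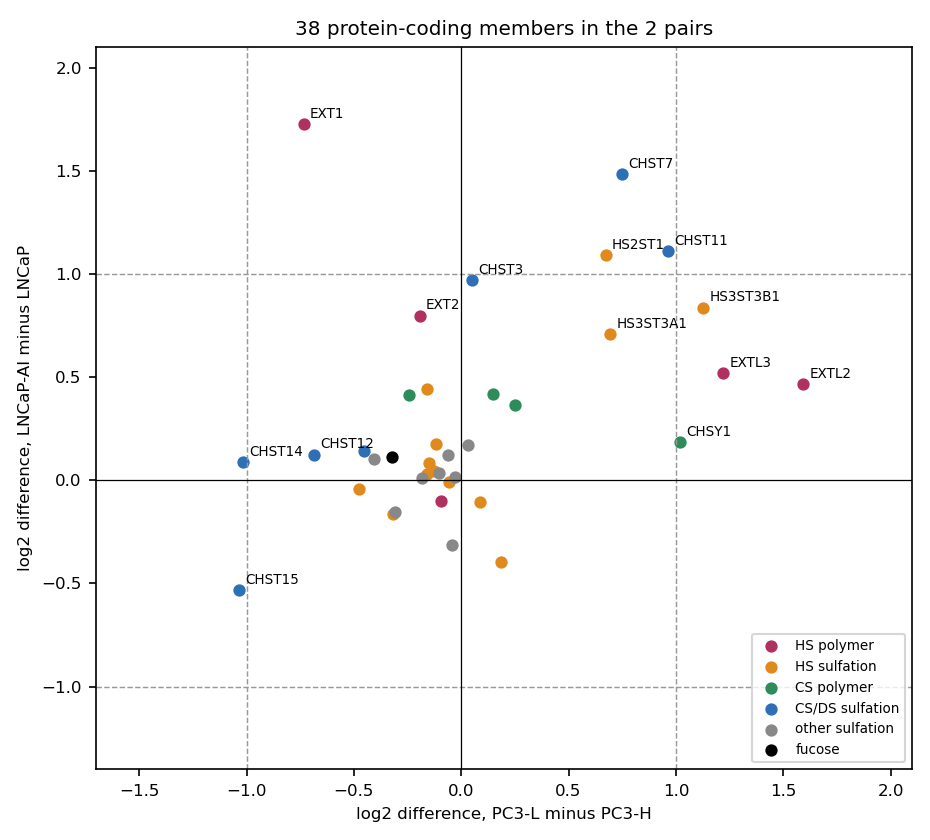
Log2 difference of PC3-L minus PC3-H (horizontal) and of LNCaP-AI minus LNCaP (vertical) for the 38 protein-coding members, 1 point per gene, coloured by role; dashed lines mark 2-fold. The pairs share no array, and no enzyme is past 2-fold in both, except CHST11 with median centring (1.01 and 1.11): it lies at 0.96 and 1.11 without it, and EXT1 at -0.73 and 1.73.

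The array labelled LNCaP-AI was set against PC3-L because the line markers place it near that array. CHST11 was the 1 member past 2-fold, lower, among 32 that passed the filter, beside 0.831% higher and 1.95% lower of all 10957 genes. CHST11 came within 2-fold with quantile normalization and with the length and density trend removed. The removal also moved the share of higher genes among all genes past 2-fold to 42.9%, against 29.8% without it. For 19 of the 38 enzymes PC3-L was the nearest array to the one labelled LNCaP-AI, for 9 it was PC3-H and for 10 LNCaP; over all named genes the shares were 37.8%, 32.9% and 29.1%. The median absolute log2 difference of the 38 enzymes from the array labelled LNCaP-AI was 0.13 for PC3-L, 0.21 for PC3-H and 0.17 for LNCaP. Between the arrays labelled high for the glycan, LNCaP and PC3-H, EXT1 and CHST11 were past 2-fold lower on LNCaP and ST8SIA6-AS1 higher. These were 2 and 1 of 33 genes, beside 4.48% lower and 5.46% higher of all 11159 genes. Of the 29 enzymes that passed, 22 were below 0 on LNCaP and 7 above (75.9% below, median log2 difference -0.13), beside 50.7% below of all 11159 genes (median -0.01). This comparison shares LNCaP with the LNCaP pair and PC3-H with the PC3 pair, and the one with PC3-L shares both of its arrays with the pairs.

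**Figure D3:**
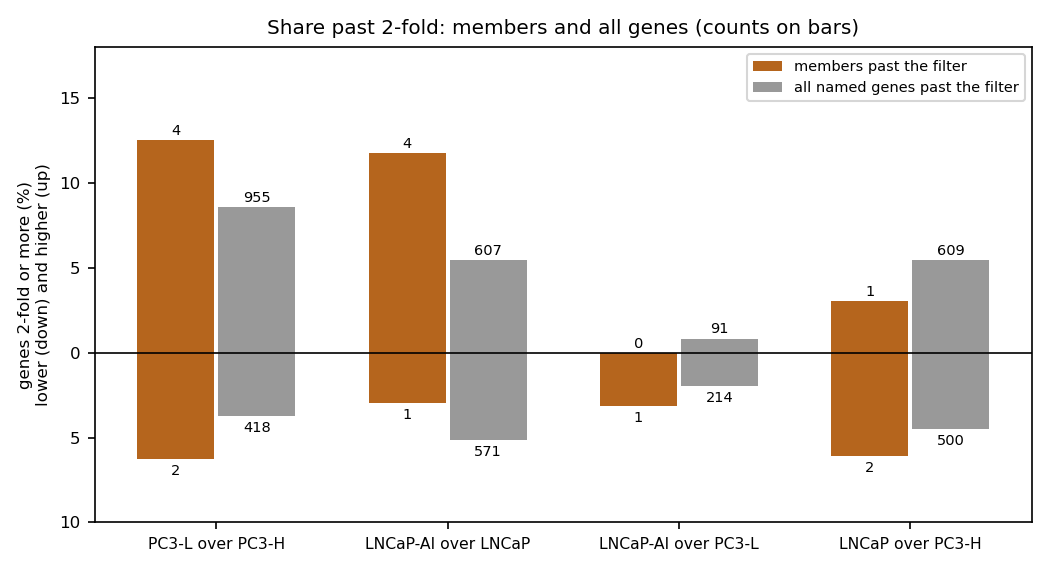
Percentage of genes 2-fold or more higher (upward bars) and lower (downward bars) on the first-named array in the 4 comparisons, for the members and for all named genes that passed the filter, with counts on the bars. Members were 4 of 32 higher and 2 of 32 lower for PC3-L over PC3-H, and 0 higher and 1 lower for LNCaP-AI over PC3-L.

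The arrays labelled low were tested against those labelled high in 1 fit over both lines, with limma, where the line entered as a further term and 1 degree of freedom was left. Of 11509 genes 0 (0%) had an adjusted p under 0.05, and 1014 (8.81%) had an unadjusted p under it. With a prior trended on mean intensity 115 genes passed after adjustment, none of them a member. Of the 35 members in the fit 0 passed after adjustment and 8 had an unadjusted p under 0.05. CHST11 had a log2 difference of 1.04 ± 0.25 (SE; limma, adjusted p = 0.352), HS3ST3B1 of 0.98 ± 0.25 (limma, adjusted p = 0.375) and CHST7 of 1.12 ± 0.30 (limma, adjusted p = 0.398), each higher on the low array in 2 of 2 pairs. HS2ST1, EXTL3, HS3ST3A1, EXTL2 and CHST15 followed, with limma adjusted p from 0.452 to 0.544, and CHST15 was lower on the low array where the others were higher. The lowest adjusted p of any member was between 0.0593 and 0.998 under the alternatives, and none passed. The fit takes the line labels as given.

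The donors and early steps of the same pathway were read from lists of genes that are no members. Beside the shares of these lists, 12.3% of all genes were past 2-fold in either direction between the PC3 arrays and 10.6% in the LNCaP pair. Of 18 measured genes for nucleotide sugar and PAPS synthesis, 2 were past 2-fold higher and 1 lower on PC3-L than on PC3-H, which is 16.7%, and the LNCaP pair had 1 higher and 2 lower, also 16.7%. PAPSS2, which makes the sulfate donor PAPS, was at 192 on PC3-L and 59.6 on PC3-H (3.19-fold), and at 83.1 on the array labelled LNCaP-AI and 33.3 on LNCaP (2.45-fold). It was the 1 gene of this list past 2-fold higher in both pairs. UAP1, which makes the N-acetylglucosamine donor used for heparan chains, was 3.07-fold higher on PC3-L than on PC3-H, at 1016 against 330, and 2.50-fold lower on the array labelled LNCaP-AI, compared with LNCaP, at 355 against 888. GFUS, of fucose donor synthesis, was 2.56-fold lower on PC3-L, and GFPT1, of the hexosamine pathway, 2.11-fold lower on the array labelled LNCaP-AI, compared with LNCaP. The median of the list was a log2 difference of 0.12 between the PC3 arrays and -0.12 in the LNCaP pair.

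Chain start and remodelling genes were past 2-fold in 1 of 11 (9.09%) between the PC3 arrays and 1 of 10 (10%) in the LNCaP pair. CSGALNACT2, which begins chondroitin chains, was at 219 on PC3-L and 64.0 on PC3-H, 3.39-fold higher. DSEL, an epimerase-like gene of dermatan synthesis, was at 65.8 on the array labelled LNCaP-AI and 338 on LNCaP, 5.07-fold lower. Of 14 core proteins 1 was higher and 4 were lower on PC3-L than on PC3-H (35.7%), and 4 were higher and 0 lower on the array labelled LNCaP-AI, compared with LNCaP (28.6%). VCAN, the large chondroitin sulfate proteoglycan versican, was at 249 on PC3-L and 48.0 on PC3-H (5.11-fold), and at 1067 on the array labelled LNCaP-AI and 27.2 on LNCaP (37.9-fold). It was past 2-fold higher in both pairs. SRGN, the core protein of serglycin, was at 26.2 on PC3-L and 1148 on PC3-H, 42.2-fold lower. CD44, a hyaluronan receptor and also 1 of the 8 PC3 line markers, was at 297 on the array labelled LNCaP-AI and 23.9 on LNCaP, a log2 difference of 3.58. The low arrays for VCAN in the LNCaP pair, SRGN and CD44 lay near the bottom of the scale. The glypican GPC4 was at 38.8 on PC3-L and 91.2 on PC3-H, and GPC6 at 243 on the array labelled LNCaP-AI and 50.1 on LNCaP. SDC4, a syndecan, was past 2-fold in both pairs but in opposite directions. Its intensity was 494 for PC3-L against 1162 for PC3-H, a log2 difference of -1.23. For the LNCaP pair the values were 876 (labelled LNCaP-AI) and 303 (LNCaP), a log2 difference of 1.53. Mucin core and glycolipid enzymes had 1 of 7 higher, UGCG (2.79-fold), and 1 lower, UGT8 (4.95-fold), on PC3-L than on PC3-H (28.6%), and 0 past 2-fold in the LNCaP pair. Glycosidases and lysosomal sulfatases had 1 of 10 (10%) higher in each pair, HEXA (2.68-fold) on PC3-L and the chondroitin-degrading sulfatase ARSB (2.09-fold) on the array labelled LNCaP-AI. None of the listed Golgi donor transporters or N-glycan mannosidases had a named probe, and they are not analysed here.

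**Figure D4:**
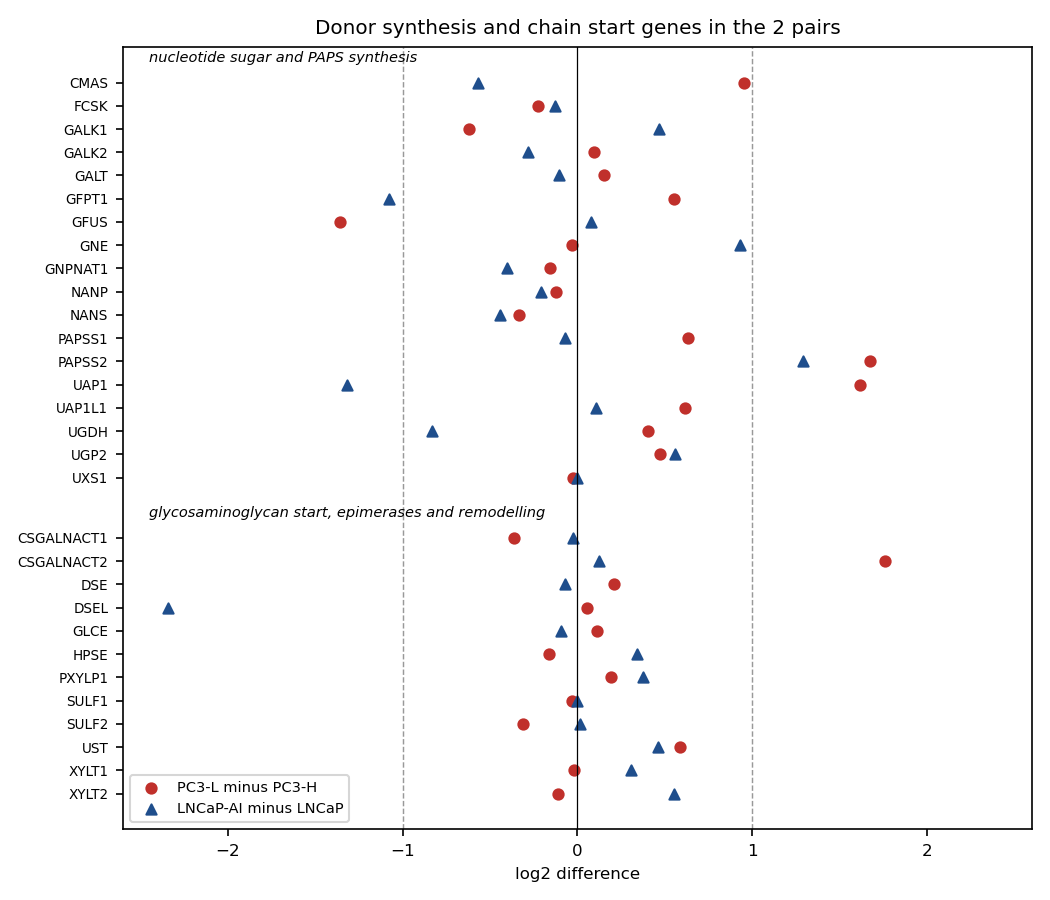
Log2 difference of PC3-L minus PC3-H (red circles) and of LNCaP-AI minus LNCaP (blue triangles) for genes of donor synthesis (upper block) and of chain start, epimerisation and remodelling (lower block); dashed lines mark 2-fold. PAPSS2 lies beyond 2-fold to the right in both pairs, and UAP1 lies beyond it to the right between the PC3 arrays and to the left in the LNCaP pair.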

How the data were processed

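Total RNA of 4 cultures was hybridised to Affymetrix whole-transcript arrays, 1 per group. The deposited values are linear intensities, as the values show; the probe summary, background correction and normalization are not given in the sources used here. The series' design text names GeneSpring GX 12.6, 10% as false discovery rate and 2-fold as threshold. Of 37934 probes 14952 had 1 gene symbol in the platform annotation, all matched to RefSeq by Entrez identifier, for 14006 genes. The probe with the highest mean stood for its gene.

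The log2 of each deposited intensity plus a pseudocount of 1 was used. A gene was kept for a pair of arrays where the brighter value was at or above the 40th percentile of that array, and 2-fold or more was counted as a difference. Low against high glycan label was fitted over all genes with limma 3.58.1 (R 4.3.3), two-sided with Benjamini-Hochberg adjustment at 0.05; the fit was tested on simulated data. The number of arrays limits the precision.

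The members and gene lists were chosen with earlier results of these data known. By rule every member was named once, with values on all 4 arrays for members past 2-fold, for the member of each role with the highest mean and for the 3 lowest p-values; others were added after their values were seen. Of each pathway list up to 3 genes past 2-fold were named per comparison, and SDC4 was added after its values were seen. Alternatives covered the pseudocount, the filter, the normalization, a trend with gene length and density, the choice of probe, the line covariate and the label of the PC3 pair. Motif search used the 250 bases before each RefSeq gene start.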

Additional observations from a re-analysis of the deposited data

Results flagged for a closer look

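EXT1, the heparan sulfate polymerase gene, went in opposite directions in the 2 pairs by at least 0.5 on the log2 scale in each. The log2 difference of PC3-L minus PC3-H was -0.73 and that of LNCaP-AI minus LNCaP was 1.73. The difference between the pairs was not tested, since each had 1 array per group. The markers of the array labelled LNCaP-AI oppose its line label, and EXT1 was at 213 on it, 357 on PC3-L, 595 on PC3-H and 63.6 on LNCaP. Groups had 1 array each, so no array could be set against replicates of its own group.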

How the results depend on the processing

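Of 15 differences of members past 2-fold, 9 stayed past 2-fold under all alternatives, 6 came within it under at least 1, and 0 reversed; CHSY1, CHST14 and CHST15 came within it under 3 alternatives each. The cause was not tested. With a pseudocount of 8, which shrinks low values by construction, 2 of the 6 member calls in the PC3 pair stayed. After a trend on length and density of genes was removed, the PC3 pair had 3 member calls, LNCaP over PC3-H had 5 (against 3) with CHST3 and EXT2 added, and the array labelled LNCaP-AI over PC3-L had 0 (against 1), as it had with quantile normalization. That removal gave 546 genes higher and 528 lower on PC3-L than on PC3-H among all genes, against 955 and 418, and 102 higher and 136 lower on LNCaP-AI than on PC3-L, against 91 and 214 (42.9% higher, against 29.8%). Of 71 counts under alternatives 6 differed by over 1.5 times from the reported ones. In the limma fit of low against high labels, 115 genes passed at an adjusted p under 0.05 with a prior trended on mean intensity, none of them a member, and 0 under the other alternatives, the opposite assignment of the PC3 pair and the fit without the line included. That fit pairs the arrays by line, and without the line it also called 0 genes. Leaving out an array leaves that fit no residual degree of freedom. Levels near the bottom of the scale limit what could be seen, since 16 of 45 members lay under the median of every array.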
